A study of Mus musculus with 6 samples.

Results

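The ABC transporter genes are the 45 genes, of 18193 genes measured, whose array annotation gave a single symbol of the form Abc, a subfamily letter from a to g, and a number. Each gene was represented by its brightest probe set, a group of short probes for one transcript, over all 6 arrays, out of 92 probe sets that named a member and no other gene. The subfamilies held 14 members (A), 8 (B), 10 (C), 3 (D), 1 (E), 3 (F) and 6 (G). The samples were LSK cells, the lineage-negative, Kit-positive, Sca1-positive fraction of adult mouse bone marrow, taken from animals of 10 to 14 weeks. Flow cytometry on the surface proteins CD34 and Flt3 gave 3 sorted groups, each with 2 Affymetrix arrays: CD34-Flt3- cells, then CD34+Flt3- cells, then cells with CD34 and high Flt3, written CD34+Flt3hi. No genotype, strain or treatment is named for any group. In mouse bone marrow, long-term repopulating stem cells are known to lie mainly in the CD34-Flt3- gate, and Flt3 marks progenitors with lymphoid and myeloid potential.

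ABC transporters are membrane proteins that use ATP to move drugs, lipids, sterols, peptides or haem out of a cell or between its compartments. The E and F subfamilies have the ATP-binding domains but no membrane span, and act on ribosomes. In haematopoietic stem cells the family is best known for dye efflux: Abcg2 exports the Hoechst dyes that define the side population, and P-glycoprotein, encoded in mice by Abcb1a and Abcb1b, exports rhodamine.

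The comparisons ask which genes differ in expression between gates whose cells differ in function. CD34-Flt3- to CD34+Flt3- cells is called the first step, CD34+Flt3- to CD34+Flt3hi cells the second, and CD34-Flt3- to CD34+Flt3hi cells is written as over both steps or between the outer gates. Values are log2 signal intensities, so a difference of 1 is a 2-fold difference. Background was set at log2 4.50, the level under which 90% of the values of 27 bacterial control probe sets lay. The arrays had median intensities of 29.7 to 31.4, and Gapdh 3' to 5' probe ratios of 5.04 and 6.34 in CD34-Flt3- cells against 6.59 to 8.42 in the other arrays. Of the sort antigens, Cd34 and Flt3 followed the labels: Cd34 rose from CD34-Flt3- to CD34+Flt3- cells by 1.48 (limma, Benjamini-Hochberg adjusted p = 0.019), and Flt3 rose from CD34+Flt3- to CD34+Flt3hi cells by 2.56 (limma, adjusted p = 0.044). Flt3 differed by 0.92 in the first step without passing. Kit, a sort antigen of all groups, differed by -0.87 in the first step and -0.98 over both, also without passing. The Sca1 gene, Ly6a, was not measured. Separate animals or sorts for the replicates are not stated, so p-values measure only the spread between arrays, which may be technical. A code in the sample titles is shared by replicate 2 of every group and is called code A here, and code B is shared by replicate 1 of the CD34+ groups. What the codes stand for is not stated. Differences within a code are given beside the pooled ones, and CD34-Flt3- cells have only code A in common with the other groups.

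Of the 45 ABC genes, 27 were above background on all 6 arrays (60%, against 64.6% of all genes), 9 on some arrays and 9 on none. Detection differed by subfamily. All 3 F members and the E member were above background on every array, as were 6 of 8 B, 6 of 10 C, 4 of 6 G and 2 of 3 D members, but only 5 of 14 A members. The 9 genes never above background were Abca6, Abca8a, Abca13, Abca14, Abca16, Abcb11, Abcc2, Abcc6 and Abcg5. Abcb11 and Abcc2 are the bile salt and conjugate exporters of the liver, and Abcg5 forms a sterol pump with Abcg8. More members were above background on both arrays in CD34-Flt3- cells (32) than in CD34+Flt3- (28) or CD34+Flt3hi cells (28). On single arrays the counts were 33 and 34, then 28 and 31, then 31 and 28. The median log2 of all genes was also higher on the CD34-Flt3- arrays (5.91 and 5.86) than on the others (5.75 to 5.84). The share of all genes above background in each group was not counted, so these counts are not read as a trait of the ABC genes.

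**Figure D1:**
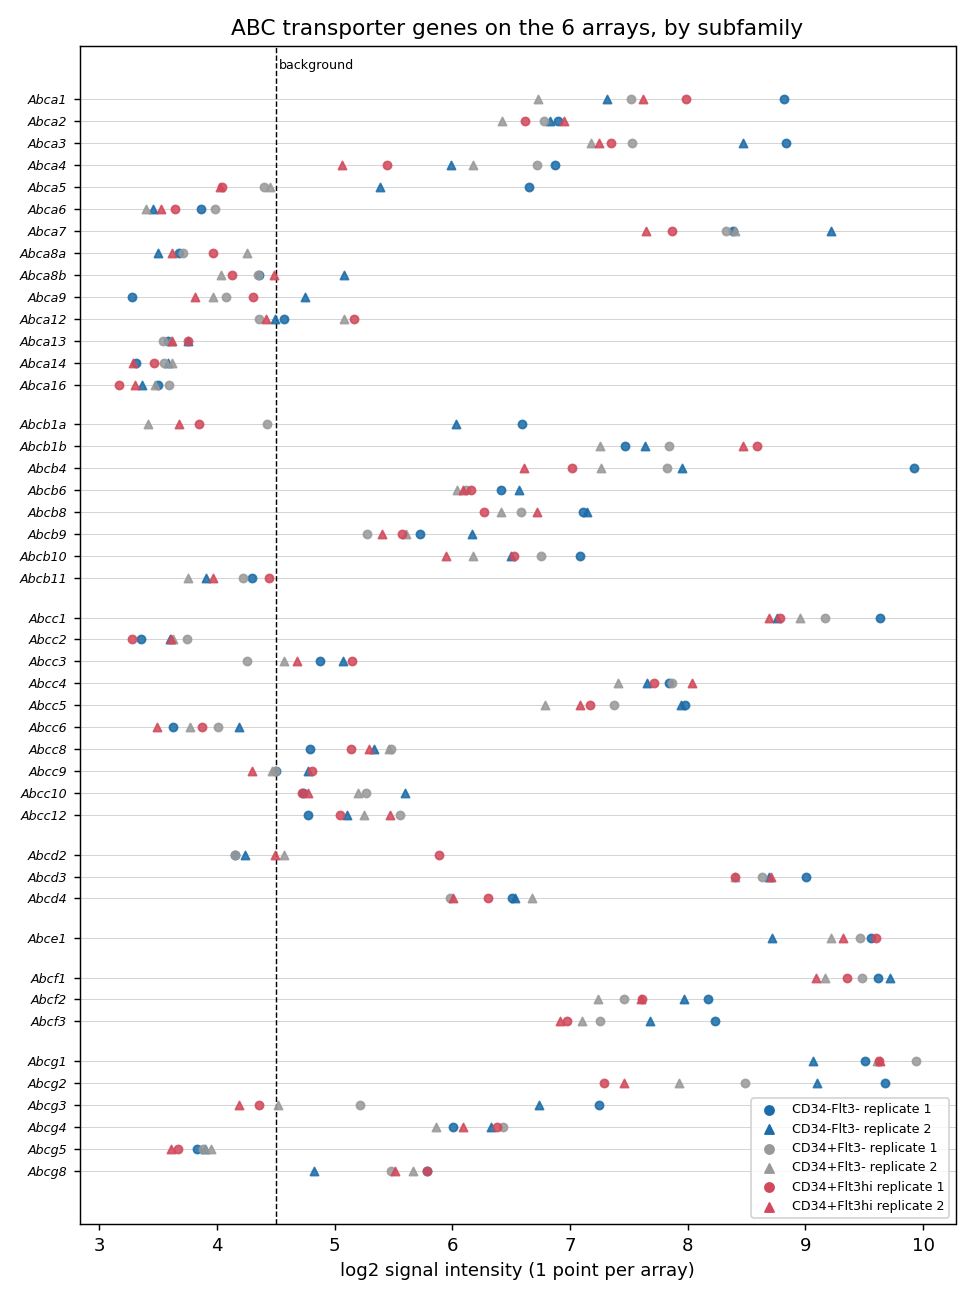
Log2 signal intensity (x axis) of the 45 ABC genes (y axis, by subfamily) on each of the 6 arrays, coloured by group, with circles for replicate 1 and triangles for replicate 2; the dashed line is the background of 4.50. Abcg3, Abcb1a and Abcg2 have both CD34-Flt3- arrays to the right of all others, and 9 genes lie left of the background line on every array. Points show each gene's own probe set, so positions are not compared between genes.

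Among the dye pumps, Abcb1a and Abcg2 were highest in CD34-Flt3- cells, and Abcb1b was highest in CD34+Flt3hi cells without passing the test. Abcb1a (Entrez 18671) read 6.59 and 6.03 in CD34-Flt3- cells, 4.42 and 3.41 in CD34+Flt3- cells and 3.84 and 3.68 in CD34+Flt3hi cells. Only the CD34-Flt3- arrays were above background, and they did not overlap with the other groups. It fell by 2.40 ± 0.34 (SE, n = 2 arrays per group) from CD34-Flt3- to CD34+Flt3- cells (limma, adjusted p = 0.0154), and the code A arrays differed by -2.62. The fall from CD34-Flt3- to CD34+Flt3hi cells was 2.55 ± 0.34 (limma, adjusted p = 0.00239), with -2.36 in code A. With values under background set to it, CD34-Flt3- cells were at least 3.51-fold higher in both comparisons. Between the CD34+ groups the difference of Abcb1a was -0.16 (limma, adjusted p = 0.990), with both groups under background. The first fall did not pass without CD34+Flt3- replicate 2 (-1.89, limma, adjusted p = 0.202) or on the mean of both Abcb1a probe sets (-1.54, limma, adjusted p = 0.0805). In sorted bulk samples, fewer cells expressing a gene and less RNA per cell cannot be told apart, here and for each gene that follows.

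Abcg2 (Entrez 26357), the Hoechst exporter, read 9.68 and 9.10 in CD34-Flt3- cells, 8.48 and 7.92 in CD34+Flt3- cells and 7.29 and 7.46 in CD34+Flt3hi cells. The groups formed 3 separate steps with no overlap, all well above background. Its fall from CD34-Flt3- to CD34+Flt3hi cells was 2.02 ± 0.30 (limma, adjusted p = 0.00389), a 4.04-fold difference, with -1.64 in code A. Neither single step passed: the first was -1.19 ± 0.30 (limma, adjusted p = 0.0802; code A -1.18) and the second -0.83 ± 0.30 (limma, adjusted p = 0.543; code A -0.46, code B -1.20). Leaving out CD34+Flt3hi replicate 1 ended the call over both steps (-1.93, limma, adjusted p = 0.0607), and leaving out CD34-Flt3- replicate 2 brought the first step past the threshold (-1.47, limma, adjusted p = 0.0217).

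Abcb1b (Entrez 18669), the other P-glycoprotein gene, read 7.47 and 7.63 in CD34-Flt3- cells, 7.84 and 7.25 in CD34+Flt3- cells and 8.59 and 8.47 in CD34+Flt3hi cells. Both CD34+Flt3hi arrays lay above the other 4, while the CD34+Flt3- arrays straddled those of CD34-Flt3- cells. CD34+Flt3hi minus CD34-Flt3- was 0.98 ± 0.28 (limma, adjusted p = 0.0773; code A 0.84), and CD34+Flt3hi minus CD34+Flt3- was 0.98 ± 0.28 (limma, adjusted p = 0.276; code A 1.22, code B 0.74). Either difference was 1.97-fold, and neither passed. After quantile normalization or centring of the arrays on their medians, the difference from CD34-Flt3- cells passed at 1.03 (limma, adjusted p = 0.0451) and 1.09 (limma, adjusted p = 0.0363). Abcb1a and Abcb1b are close relatives, and whether either probe set takes up the other's transcript was not tested.

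**Figure D2:**
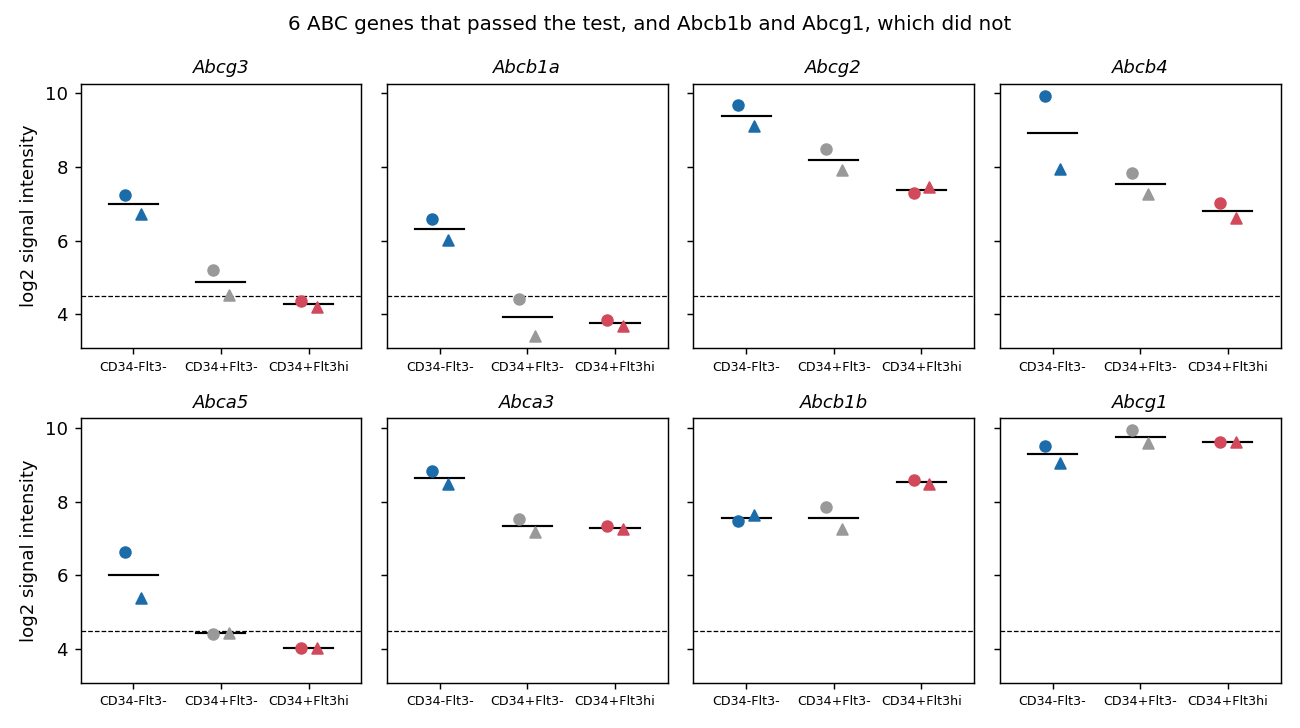
Log2 signal intensity (y axis) by sorted group (x axis) for the 6 ABC genes that passed the test in any comparison and for Abcb1b and Abcg1, which did not; circles are replicate 1, triangles replicate 2, bars the group mean and the dashed line the background of 4.50. Abcg2 descends over 3 separate levels from a mean of 9.39 to 7.37, Abcb1a drops under background outside CD34-Flt3- cells, and the 2 CD34-Flt3- arrays of Abcb4 lie 1.97 apart.

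Abcb1a, Abcb1b and Abcb4 are consecutive protein-coding genes on chromosome 5, of which Abcb1a and Abcb4 fell between the outer gates and Abcb1b did not pass. Abcb4 (Entrez 18670), which moves phosphatidylcholine to the outer membrane leaflet and is best known from liver, read 9.92 and 7.95 in CD34-Flt3- cells, 7.83 and 7.27 in CD34+Flt3- cells and 7.01 and 6.61 in CD34+Flt3hi cells. Groups did not overlap, but the CD34-Flt3- arrays differed from each other by more than the groups of CD34+ cells did. The fall from CD34-Flt3- to CD34+Flt3hi cells was 2.12 ± 0.53 (limma, adjusted p = 0.0445), a 4.35-fold difference, against -1.34 in code A. That call was lost in 8 of 16 alternatives, among them without CD34-Flt3- replicate 1 (-1.14, limma, adjusted p = 0.0542), without CD34+Flt3- replicate 1 or 2 (limma, adjusted p = 0.0866 and 0.0876) and without CD34+Flt3hi replicate 1 or 2 (-2.32 and -1.92, limma, adjusted p = 0.175 and 0.281). The first step of Abcb4 was -1.39 ± 0.53 (limma, adjusted p = 0.222), and -2.37 without CD34-Flt3- replicate 2 (limma, adjusted p = 0.00336).

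The promoter windows of these pump genes are shown because 2 of these 3 neighbours at one locus fell. Each is the 250 bases before the RefSeq start of transcription on GRCm38.p6, plus strand, 5′ to 3′. Capitals mark matches, on either strand, to the GC box GGGCGG, the CCAAT box CCAAT, the XRE core GCGTG (the letters bound by the aryl hydrocarbon receptor), the GATA site GATAA and the TATA box TATAAA. Matches may share bases, and a match is a description of letters only.
Abcb1a chr5:8566841-8567090: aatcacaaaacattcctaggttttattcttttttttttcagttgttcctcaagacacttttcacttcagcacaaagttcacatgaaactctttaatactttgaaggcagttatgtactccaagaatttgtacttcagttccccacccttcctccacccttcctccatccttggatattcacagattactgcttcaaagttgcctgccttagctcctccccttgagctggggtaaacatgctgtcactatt
Abcb1b chr5:8797897-8798146: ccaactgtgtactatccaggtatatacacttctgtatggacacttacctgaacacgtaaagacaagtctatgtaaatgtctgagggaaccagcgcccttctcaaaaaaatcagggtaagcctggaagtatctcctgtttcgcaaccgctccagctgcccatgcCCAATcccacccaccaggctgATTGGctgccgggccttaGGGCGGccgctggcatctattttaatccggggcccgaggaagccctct
Abcb4 chr5:8893471-8893720: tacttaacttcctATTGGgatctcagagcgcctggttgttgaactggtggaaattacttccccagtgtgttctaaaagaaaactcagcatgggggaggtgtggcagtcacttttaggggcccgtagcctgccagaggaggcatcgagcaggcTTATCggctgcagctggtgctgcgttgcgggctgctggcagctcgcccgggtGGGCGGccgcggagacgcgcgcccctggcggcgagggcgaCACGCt
The Abcb1a window held none of the 5 motifs, 40.4% G and C bases and 0 CpG dinucleotides. Abcb1b had 1 GC box and 2 CCAAT boxes in 52.8% G and C with 9 CpG, and Abcb4 had 1 match each to the GC box, CCAAT box, XRE core and GATA site in 61.6% G and C with 18 CpG. Over all promoter windows of the table the median was 52.4% G and C.

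Abcg2 has 3 start sites in RefSeq, and its window at each is shown because the array has 1 probe set for the gene, which cannot say which start the falling transcript used. Capitals and strand are as above.
Abcg2 chr6:58584283-58584532: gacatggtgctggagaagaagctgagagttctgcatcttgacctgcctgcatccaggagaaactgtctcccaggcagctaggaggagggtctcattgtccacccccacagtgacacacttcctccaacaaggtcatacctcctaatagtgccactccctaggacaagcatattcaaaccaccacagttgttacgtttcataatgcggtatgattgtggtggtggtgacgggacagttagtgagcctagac
Abcg2 chr6:58596422-58596671: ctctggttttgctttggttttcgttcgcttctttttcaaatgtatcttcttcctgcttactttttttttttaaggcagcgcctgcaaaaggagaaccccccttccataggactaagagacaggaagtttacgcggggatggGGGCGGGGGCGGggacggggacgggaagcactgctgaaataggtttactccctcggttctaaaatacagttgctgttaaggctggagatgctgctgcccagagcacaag
Abcg2 chr6:58640296-58640545: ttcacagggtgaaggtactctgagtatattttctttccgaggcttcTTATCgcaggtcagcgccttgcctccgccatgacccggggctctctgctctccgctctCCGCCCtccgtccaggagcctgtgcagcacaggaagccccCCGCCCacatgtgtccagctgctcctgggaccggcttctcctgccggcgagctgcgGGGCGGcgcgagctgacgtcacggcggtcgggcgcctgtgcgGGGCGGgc
The first window had no match to the motifs, the next had 2 GC boxes, and the third had 4 GC boxes and 1 GATA site with 67.6% G and C.

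Among the remaining G members, Abcg3 fell in the first step and over both. Abcg3 (Entrez 27405), a rodent relative of Abcg2, read 7.24 and 6.74 in CD34-Flt3- cells, 5.21 and 4.52 in CD34+Flt3- cells and 4.36 and 4.19 in CD34+Flt3hi cells. The 3 groups did not overlap, and CD34+Flt3hi cells were under background. It fell by 2.12 ± 0.31 in the first step (limma, adjusted p = 0.0172; code A -2.22), a 4.35-fold difference, and by 2.72 ± 0.31 over both (limma, adjusted p = 0.00117; code A -2.55), at least 5.62-fold. Its second probe set read 6.33 and 5.30, then 3.96 and 4.30, then 3.95 and 4.09, and was above background in CD34-Flt3- cells alone. That probe set fell by 1.79 over both steps (limma over all probe sets, adjusted p = 0.0173). The fall over both steps passed in all 15 alternatives that measured Abcg3, while the first step missed the threshold in 4, among them without CD34+Flt3- replicate 2 (-1.77, limma, adjusted p = 0.221) and without CD34+Flt3hi replicate 1 or 2 (limma, adjusted p = 0.0511 and 0.0514).

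Abcg1 (Entrez 11307), which passes cholesterol to lipoproteins, was lowest in CD34-Flt3- cells without passing. It read 9.51 and 9.06 in CD34-Flt3- cells, 9.94 and 9.60 in CD34+Flt3- cells and 9.63 and 9.63 in CD34+Flt3hi cells. Both CD34+ groups lay above CD34-Flt3- cells on every array. The differences from CD34-Flt3- cells were 0.49 ± 0.24 (limma, adjusted p = 0.341) and 0.34 ± 0.24 (limma, adjusted p = 0.518), the latter 0.56 when CD34-Flt3- replicate 1 was left out and 0.12 when replicate 2 was. Abcg4 and Abcg8 differed by 0.07 and 0.34 between the outer gates, with adjusted p-values (limma) of 0.940 and 0.672.

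In the A subfamily, whose known members move lipids and sterols, Abca3 and Abca5 fell. Abca3 (Entrez 27410), the lipid pump of surfactant lamellar bodies in lung, read 8.83 and 8.47 in CD34-Flt3- cells, 7.52 and 7.18 in CD34+Flt3- cells and 7.35 and 7.25 in CD34+Flt3hi cells. The CD34-Flt3- arrays stood apart, and the CD34+ groups overlapped. It fell by 1.30 ± 0.27 in the first step (limma, adjusted p = 0.0426; code A -1.29; 2.46-fold) and by 1.35 ± 0.27 over both (limma, adjusted p = 0.0165; code A -1.22; 2.55-fold), with -0.05 between the CD34+ groups. The first-step call was lost in 7 alternatives: without CD34-Flt3- replicate 1 (-1.12, limma, adjusted p = 0.0559), CD34+Flt3- replicate 1 (-1.47, 0.0861), CD34+Flt3- replicate 2 (-1.13, 0.368) or either CD34+Flt3hi array (0.124 and 0.123), with only the 4 arrays compared (0.121), and on the mean of its probe sets (-0.66, 0.207). The call over both steps was lost without CD34+Flt3hi replicate 1 or 2 (limma, adjusted p = 0.161 and 0.191) and on the mean of its probe sets (-0.73, limma, adjusted p = 0.127), one of which was under background on every array.

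Abca5 (Entrez 217265), a lysosomal member, read 6.65 and 5.39 in CD34-Flt3- cells, 4.40 and 4.45 in CD34+Flt3- cells and 4.04 and 4.02 in CD34+Flt3hi cells. Only the CD34-Flt3- arrays were above background, 1.26 apart, and the 3 groups did not overlap. Over both steps it fell by 1.99 ± 0.36 (limma, adjusted p = 0.011; code A -1.36), at least 2.86-fold, while the first step was -1.59 ± 0.36 (limma, adjusted p = 0.0569; code A -0.94). Without CD34+Flt3hi replicate 1 or 2 the fall over both steps did not pass (limma, adjusted p = 0.0857 and 0.0901). Without CD34-Flt3- replicate 1 or 2 the first step did (-0.96 and -2.22, limma, adjusted p = 0.0486 and 0.00154). Abca5 closes a run of consecutive genes on chromosome 11, Abca8b, Abca8a, Abca9, Abca6 and Abca5. Of the others in that run, Abca6 and Abca8a were never above background, and Abca8b and Abca9 were above it on 1 array each, a CD34-Flt3- array.

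Abca7 (Entrez 27403), a phospholipid exporter linked to phagocytosis, read 8.38 and 9.22 in CD34-Flt3- cells, 8.32 and 8.40 in CD34+Flt3- cells and 7.87 and 7.65 in CD34+Flt3hi cells. CD34+Flt3hi cells were lowest, and the other groups overlapped. The difference between the outer gates was -1.05 ± 0.30 (limma, adjusted p = 0.0826; code A -1.57), and it passed without CD34-Flt3- replicate 1 (-1.46, limma, adjusted p = 0.00575). Abca1, the exporter of cholesterol to apolipoprotein A-I, read 8.82 and 7.31, then 7.52 and 6.73, then 7.99 and 7.62, so that its groups overlapped and its CD34-Flt3- arrays lay 1.51 apart. Abca4, known from the retina, was lowest in CD34+Flt3hi cells at 5.45 and 5.06, against 5.99 to 6.87 on the other arrays (CD34+Flt3hi minus CD34+Flt3- -1.19 ± 0.36, limma, adjusted p = 0.322). Abca2 read 6.42 to 6.94 over all arrays.

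No C member, the subfamily of conjugate exporters, passed in any comparison in limma, with 1, 0 and 1 of 10 at an unadjusted p under 0.05 in the first step, the second and over both. Abcc1 (Entrez 17250), which exports glutathione conjugates and leukotriene C4, read 9.63 and 8.76 in CD34-Flt3- cells, 9.16 and 8.96 in CD34+Flt3- cells and 8.79 and 8.69 in CD34+Flt3hi cells. The 2 CD34-Flt3- arrays spanned both CD34+Flt3- arrays, and the difference between the outer gates was -0.45 (limma, adjusted p = 0.487), and leaving out CD34-Flt3- replicate 1 gave -0.02, leaving out replicate 2 gave -0.89. Abcc5 (Entrez 27416), a cyclic nucleotide exporter, read 7.98 and 7.94, then 7.37 and 6.79, then 7.17 and 7.08. Its CD34-Flt3- arrays lay above all others, with differences of -0.88 in the first step (limma, adjusted p = 0.153) and -0.83 ± 0.28 over both (limma, adjusted p = 0.138). Abcc5 had 10 probe sets, whose differences between the outer gates ran from -0.83 to 0.30. Abcc4, another cyclic nucleotide exporter, read 7.40 to 8.04 over all arrays with overlapping groups.

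The sulphonylurea receptors Abcc8 and Abcc9, which are regulatory subunits of potassium channels, showed no passing difference. Abcc8 read 4.79 and 5.33 in CD34-Flt3- cells, 5.48 and 5.46 in CD34+Flt3- cells and 5.14 and 5.29 in CD34+Flt3hi cells. Abcc9 lay within 4.30 and 4.81, close to background. Their channel genes Kcnj11 and Kcnj8 did not pass either, with differences between the outer gates of -0.08 and 0.58.

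None of the mitochondrial and haem-linked B members passed. Abcb6, a porphyrin transporter, read 6.42 and 6.56 in CD34-Flt3- cells against 6.04 to 6.16 on the CD34+ arrays, which did not overlap with them. Abcb8 read 7.11 and 7.14 against 6.27 to 6.72, also without overlap, and Abcb10, which supports haem synthesis in erythroid cells, ran from 5.95 to 7.08 with overlapping groups. The differences between the outer gates were -0.36, -0.63 and -0.56 (limma, adjusted p = 0.529, 0.261 and 0.450). The other probe sets of Abcb10 went the other way, at 0.42 (above background on all 6 arrays) and 0.28, and the other probe set of Abcb8 gave -0.45. Abcb9, a lysosomal peptide transporter, differed by -0.46 (limma, adjusted p = 0.450).

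The D members bring fatty acids into peroxisomes or, for Abcd4, cobalamin out of lysosomes. Abcd3 (Entrez 19299) read 9.003 and 8.69 in CD34-Flt3- cells, 8.63 and 8.41 in CD34+Flt3- cells and 8.40 and 8.71 in CD34+Flt3hi cells, and differed by -0.29 between the outer gates (limma, adjusted p = 0.620). Abcd2 (Entrez 26874) differed by 0.99 ± 0.39 between those gates (limma, adjusted p = 0.207), with CD34-Flt3- cells under background and CD34+Flt3hi cells at least 1.61-fold higher. The difference rested on 1 array: the readings were 4.16 and 4.24, then 4.16 and 4.57, then 5.88 and 4.49, the code A difference was 0.25, and without CD34+Flt3hi replicate 2 the difference was 1.68 (limma, adjusted p = 0.0375).

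The ribosome-acting E and F members were among those above background everywhere, and 0 passed in limma (Abcf members at an unadjusted p under 0.05 numbered 2, 0 and 1, and Abce1 was not among such genes). Abce1 (Entrez 24015), which splits ribosomes after termination, read 9.56 and 8.71 in CD34-Flt3- cells, 9.46 and 9.22 in CD34+Flt3- cells and 9.60 and 9.32 in CD34+Flt3hi cells, a difference of 0.32 between the outer gates (limma, adjusted p = 0.644) that turned to -0.10 without CD34-Flt3- replicate 2. Abcf1 (Entrez 224742), a translation initiation factor, read 9.62 and 9.72, then 9.48 and 9.16, then 9.35 and 9.09, a difference of -0.45 (limma, adjusted p = 0.347), while another of its 6 probe sets gave 0.59. Abcf3 (Entrez 27406) read 8.23 and 7.68, then 7.26 and 7.10, then 6.97 and 6.91, with no overlap between groups. Its difference between the outer gates was -1.02 ± 0.28 (limma, adjusted p = 0.069; code A -0.77), and -1.29 without CD34-Flt3- replicate 2 (limma, adjusted p = 0.0195). Abcf2 was -0.72 in CD34+Flt3- against CD34-Flt3- cells (limma, adjusted p = 0.190).

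Counted over the family, 3 of 45 ABC genes (6.67%) fell and 0 rose from CD34-Flt3- to CD34+Flt3- cells, namely Abca3, Abcb1a and Abcg3. Over all 18193 genes 2.1% passed in that comparison, 1.33% lower and 0.77% higher. From CD34+Flt3- to CD34+Flt3hi cells 0 of 45 passed in limma, with 3 at an unadjusted p under 0.05, and 0.61% of all genes passed, 0.225% lower and 0.385% higher. Between CD34-Flt3- and CD34+Flt3hi cells 6 of 45 (13.3%) fell and 0 rose, against 6.11% of all genes, 3.5% lower and 2.62% higher. These were the 3 above with Abca5, Abcb4 and Abcg2, so 39 members passed in no comparison. The first count was 0 without CD34+Flt3- replicate 2 (limma, 5 at an unadjusted p under 0.05), 1 without either CD34+Flt3hi array and 7 without CD34-Flt3- replicate 2, and the last was 2 without CD34+Flt3hi replicate 1 (Abcb1a and Abcg3) and 4 without its replicate 2. In each such fit the lone array of a group is assumed to vary like the other groups.

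The direction of the ABC genes was described on all members too. Their median differences were -0.13 in the first step, -0.10 in the second and -0.22 over both, where all genes had -0.10, 0.03 and -0.07. These medians moved with single arrays: without CD34+Flt3- replicate 1 the first was -0.30 and the second 0.06, without CD34+Flt3- replicate 2 they were -0.09 and -0.20, and the second was -0.16 and -0.02 without CD34+Flt3hi replicate 1 and 2. The first was -0.21 without CD34-Flt3- replicate 2. Over both steps the median stayed between -0.29 and -0.19 with an array left out, and centring the arrays gave -0.12, with 0.04 for all genes. All these medians include the 9 members never above background. The 36 members above it on at least 1 array had -0.33, 0.02 and -0.39, where all genes so filtered had -0.14, 0.045 and -0.08. Of these members, Abca5, Abca8b, Abca9 and Abcb1a came in only through CD34-Flt3- arrays, so that filter can favour falls from CD34-Flt3- cells. The 27 members above background on all 6 arrays had -0.33, -0.05 and -0.42, and the matching medians of all genes were not taken. Groups did not overlap in the first step for 51.1% of members beside 44.2% of all genes. By direction, 18 members (40.0%) were lower and 5 (11.1%) higher in CD34+Flt3- cells, beside 28.6% and 15.6% of all genes. In the second step 42.2% of members and 40.4% of all genes did not overlap, with 14 members (31.1%) lower and 5 (11.1%) higher beside 17.7% and 22.7%. Among the 36 members above background on at least 1 array, 10 were lower and 4 higher there, beside 2583 and 3667 of 14901 such genes. Over both steps the shares were 46.7% and 47.9%, with 18 members (40.0%) lower and 3 (6.67%) higher beside 29.1% and 18.8%. The total shares of members were near those of all genes in the second step and over both, and in each comparison the members' share was above that of all genes among lower readings and below it among higher ones, a difference that was not tested. Arrays ran in the strict order CD34-Flt3-, CD34+Flt3-, CD34+Flt3hi from high to low in 5 members, Abca5, Abcb4, Abcf3, Abcg2 and Abcg3, where 4.41% of all genes had that order, and 0 members had the opposite order.

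**Figure D3:**
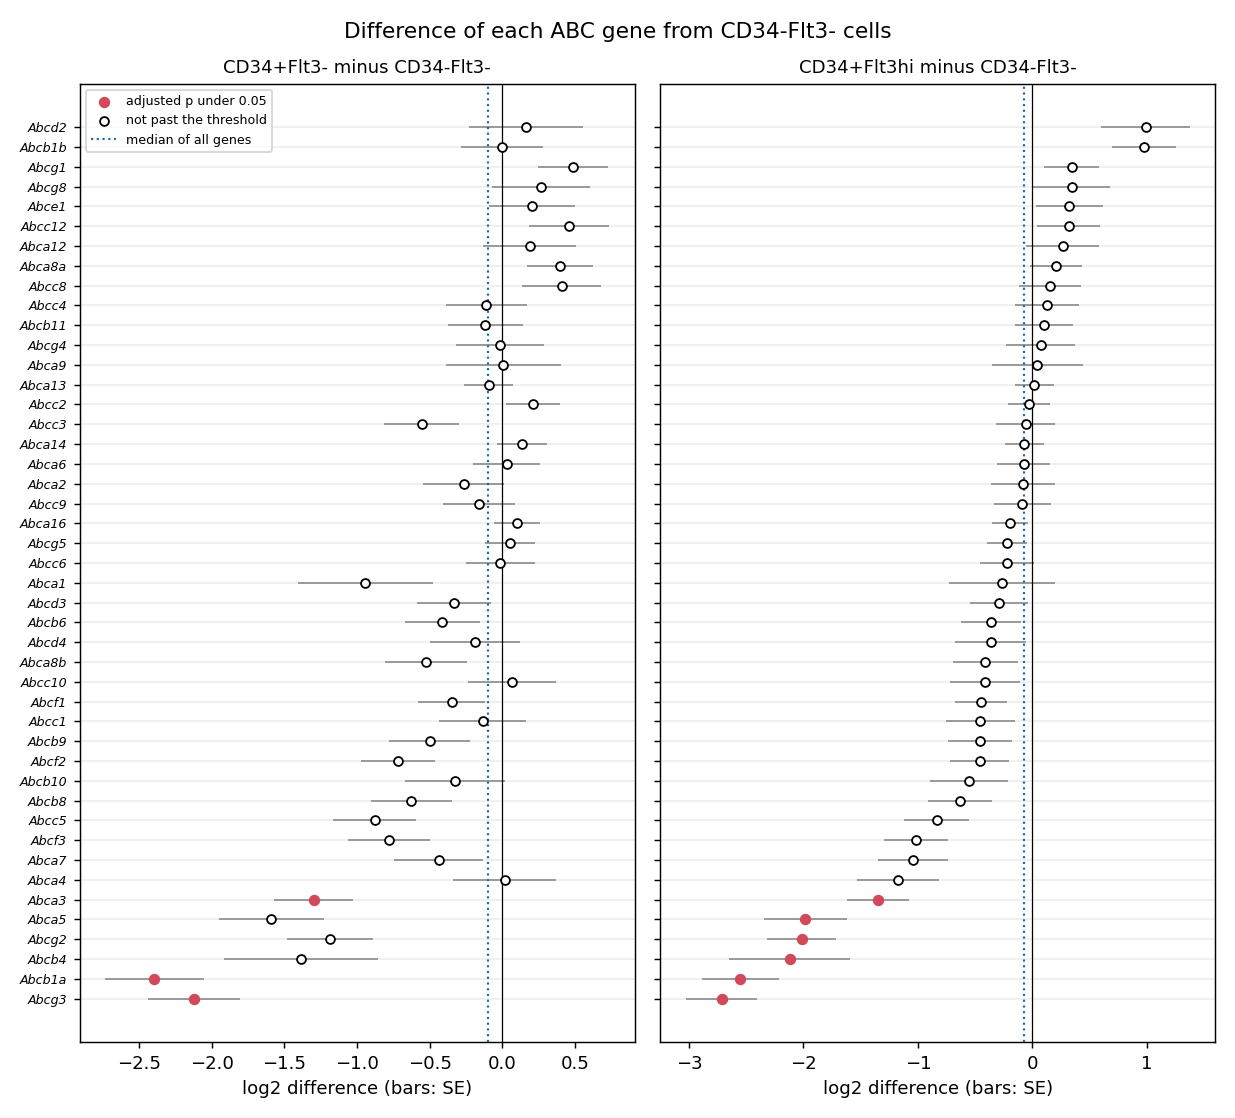
Log2 difference (x axis, bars SE) of each ABC gene (y axis, ordered by the difference between the outer gates) in CD34+Flt3- cells (left) and CD34+Flt3hi cells (right) against CD34-Flt3- cells; filled points have an adjusted p under 0.05, open points do not, and the dotted line is the median of all genes. Filled points lie only left of 0, 3 in the left panel and 6 in the right, with Abcg3 at -2.72 on the right. The order is not settled for genes with a group mean under background, among them Abcg3, Abcb1a, Abca5, Abcd2 and the 9 genes never above it.

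Replicate arrays of one group were not equally close. The median gap between the 2 replicates over the 45 genes was 0.37 for the CD34-Flt3- pair, 0.32 for the CD34+Flt3- pair and 0.27 for the CD34+Flt3hi pair. In CD34-Flt3- cells 4 members differed over 2-fold between replicates, against 1 in each of the other groups. The largest gaps were 1.97 (Abcb4), 1.01 (Abcb1a) and 1.39 (Abcd2) in the 3 groups in that order.

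Probe sets of one gene often disagreed. Of 26 members with several probe sets, 13 had the same sign in all of them between the outer gates and 12 in the first step. Another 47 probe sets beside those used named a member, and 15 of them were under background on all arrays. Tested over all probe sets, 1 of the 47 passed in the first step, 0 in the second and 1 over both, each time that of Abcg3. The second probe set of Abcb1a was above background on 1 array, CD34-Flt3- replicate 1 at 4.73, and differed by -0.93 between the outer gates. Abca3's second probe set, above background on 5 arrays, differed by -0.85. Abcb4 and Abcg2 have 1 probe set each, so no other reading of them was at hand.

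**Figure D4:**
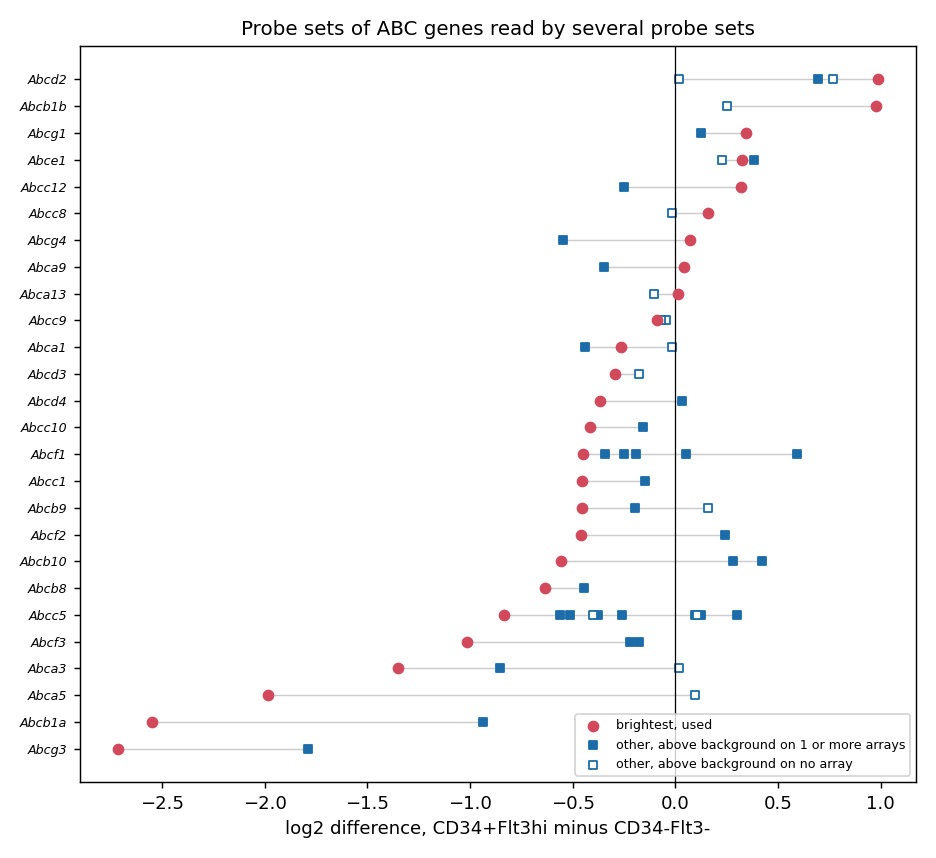
Log2 difference of CD34+Flt3hi minus CD34-Flt3- cells (x axis) for every probe set of the 26 ABC genes with several (y axis); red circles are the brightest probe sets, used for the gene, filled blue squares others above background on 1 or more arrays and open squares others under background on all. Both Abcg3 probe sets lie far left at -2.72 and -1.79, whereas for Abca5 the other probe set, under background, lies at 0.10.

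Promoter windows of 250 bases were found for 35 of the 45 members, 42 windows in all, and their median G and C content was 57.2%. All 6 genes that fell had a window. A GC box was present in 5 of those 6 genes and in 12 of the 29 other members (41.4%), and in 32.7% of all 32851 windows. The XRE core was present in 4 of 6, Abca3, Abca5, Abcb4 and Abcg3, in 7 of 29 (24.1%) and in 28.2% of all windows. CCAAT boxes were in 1 of 6 and 11 of 29, GATA sites in 2 of 6 and 8 of 29, and TATA boxes in 0 of 6 and 5 of 29, with shares of 33.8%, 22.6% and 12.4% over all windows. Genes with several starts had more windows in which a motif could lie.

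Few regulators known to act on drug pump genes passed, and Esr1, the only riser, also fell in the first step. Of 17 measured, 0 rose and 2 fell in the first step (11.8%), and 1 rose and 0 fell in the second (5.88%). Over both steps 0 rose and 2 fell (11.8%). The shares of all genes that passed were 2.1%, 0.61% and 6.11%. Ahr, the aryl hydrocarbon receptor, a known activator of Abcg2, read 7.77 and 6.71 in CD34-Flt3- cells, 5.04 and 5.05 in CD34+Flt3- cells and 4.79 and 5.17 in CD34+Flt3hi cells. The CD34-Flt3- arrays stood apart, and Ahr fell by 2.20 in the first step (limma, adjusted p = 0.0194) and by 2.26 over both (limma, adjusted p = 0.0054). Esr1, an oestrogen receptor, fell by 1.24 in the first step (limma, adjusted p = 0.0488) and rose by 1.67 in the second (limma, adjusted p = 0.0251). Foxo1 fell by 1.15 over both steps (limma, adjusted p = 0.0378).

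In the sterol efflux and LXR pathway, which supplies and controls Abca1 and Abcg1, 0 of 18 measured genes rose in any comparison. In each single step 1 fell (5.56%, against 2.1% and 0.61% of all genes). Over both steps 2 fell (11.1%, against 6.11%). Apoe, the apolipoprotein that accepts exported cholesterol, read 11.02 and 11.08 in CD34-Flt3- cells, 10.73 and 9.59 in CD34+Flt3- cells and 5.42 and 5.88 in CD34+Flt3hi cells. The drop lay between the CD34+ groups: it fell by 4.51 there (limma, adjusted p = 0.0013) and by 5.40 over both steps. Nceh1, a cholesterol ester hydrolase, fell by 1.40 in the first step (limma, adjusted p = 0.0273) and by 2.21 over both (limma, adjusted p = 0.0011). The list's median differences were -0.21, 0.09 and -0.07, near those of all genes.

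Of 19 measured genes of glutathione conjugation, whose products C members export, 0 rose in any comparison. In the first step 2 fell (10.5%, against 2.1% of all genes), and in the second 0 (limma, 4 at an unadjusted p under 0.05). Over both steps 5 fell (26.3%, against 6.11%). The 5 were the glutathione transferases Gstt1 (fell by 2.84), Gstm5 (fell by 2.00), Gsta4 (fell by 1.79), Gstm2 (fell by 1.64) and Gstm1 (fell by 1.15). Gstt1 read 8.83 and 8.99 in CD34-Flt3- cells, 7.81 and 7.24 in CD34+Flt3- cells and 6.21 and 5.93 in CD34+Flt3hi cells, with no overlap (limma, adjusted p = 0.0006 over both steps). The list's median difference over both steps was 0.06, so most of its members did not share the fall.

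The partner lists of the remaining subfamilies are read against the 6.11% of all genes that passed over both steps. Of 23 haem and iron-sulphur genes 2 (8.7%) fell over both steps, the haem transporter Slc48a1 (fell by 1.55) and the cluster assembly factor Isca1 (fell by 1.44), and 0 passed in the single steps, with 5 and 0 at an unadjusted p under 0.05 in limma. Of 14 peroxisomal partners Ehhadh fell in the first step by 1.53, and Ehhadh and Elovl1 fell over both (14.3%). Of 16 other drug and organic ion transporters only Slco3a1 passed: it rose over both steps by 1.80 (limma, adjusted p = 0.0031). Among 12 ribosome recycling genes and 12 genes of MHC class I peptide loading, 0 passed in any comparison in limma, with 3, 1 and 1 and with 3, 1 and 2 at an unadjusted p under 0.05. Of the 3 ABC proteins whose symbols lack the prefix, the peptide transporter subunits Tap1 and Tap2 were above background on all arrays and differed by 0.17 and 0.26 between the outer gates without passing, and the chloride channel Cftr was under background on all.

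Other gene lists moved with the gates beside the ABC genes. Over all genes 2.1% passed in the first step and 6.11% over both. Of 9 markers of stem and progenitor gates, 8 fell and 1 rose over both steps, among them Procr (fell by 2.92), Slamf1 (fell by 3.10) and Cd48 (rose by 3.32). Of 23 G2 and M phase genes, 12 rose in the first step and 22 over both, and their summed intensity was 6511 and 2119 in CD34-Flt3- cells, 16302 to 16993 in CD34+Flt3- cells and 20145 to 20594 in CD34+Flt3hi cells. Summed intensities of 8 megakaryocyte markers were 3464 to 3731, 1197 to 2459 and 333 to 378 in the 3 groups, and 5 of the 8 fell over both steps. In the first step 4 of the 8 were lower and 4 higher, with a median difference of 0.01, and 1 passed, lower. In the second step all 8 were lower, with a median of -1.70, and 2 passed. Summed intensities of 7 endothelial markers were 541 to 586, 314 to 315 and 212 to 246, with 2 of 7 falling over both steps and Cdh5 under background on all arrays. Mature erythroid markers (7) summed to 1129 and 315, then 177 to 360, then 160 to 177, with 1 of 7 falling over both steps. The part of these cells in the ABC results was not tested.

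The markers of other lineages were summed in the same way. Intensities of 9 neutrophil and monocyte markers lay between 1238 and 1587 on all arrays, and S100a8, Ltf and Itgam were under background, while Csf1r, the macrophage colony-stimulating factor receptor, rose by 2.03 in the second step (limma, adjusted p = 0.0447) and by 3.16 over both (limma, adjusted p = 0.0012). Those of 7 B lineage markers were 424 to 439 in CD34-Flt3- cells and 293 to 345 on the CD34+ arrays, with 0 of 7 passing in any comparison (limma, 0 at an unadjusted p under 0.05). Sums ran, over all arrays, for 7 T and NK markers from 460 to 807, for 7 stromal markers from 220 to 375 and for 6 mast cell markers from 175 to 677, the last highest in CD34+Flt3- cells. Among them the mast cell genes Ms4a2 rose in the first step and fell in the second, Cpa3 fell in the second and over both, and the stromal collagen gene Col1a2 fell by 1.65 over both (limma, adjusted p = 0.023). Ms4a1, Cd3g and Col3a1 were under background on all arrays. The 5 dendritic markers, which include the sort antigen Flt3, summed to 318 and 709 in CD34-Flt3- cells and to 3575 and 4272 in CD34+Flt3hi cells. Flt3 rose by 3.48 over both steps and was the only 1 of the 5 that passed. The list's median difference was 0.21, and 2 of the 5 were lower.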

How the data were processed

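Total RNA of sorted cells was amplified, labelled with biotin and hybridised to Affymetrix arrays, per the labels' protocols. The deposited values are linear signal intensities of 45101 probe sets, made by the authors with RMA, per the submitters' processing notes, which name no version. The linear scale was read from the values, which run from 6.50 to 24173, and log2 of the deposited intensities was taken here. Of all probe sets 34945 had 1 gene symbol, 932 several and 9160 none, and 64 were controls. Symbols were updated through Entrez identifiers to RefSeq GRCm38.p6 (99.4% matched), and the brightest probe set stood for a gene.

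Group differences were fitted on all 6 arrays with limma 3.58.1 in R 4.3.3 (lmFit, eBayes with an intensity trend, 3 residual degrees of freedom, 6.86 prior degrees of freedom), with Benjamini-Hochberg adjustment over 18193 genes, and p under 0.05 was the threshold. With 2 against 2 arrays, exact permutation cannot reach below p = 0.333, so none was run. A fold is given as at least its value where a group mean lay under background, with values under background set to it, and not at all where both did. Motifs and figures used Python 3.11.15, pandas 2.3.3 and matplotlib 3.10.9. The fit was tested on simulated data.

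Genes named with values on every array were the dye pumps Abcb1a, Abcb1b and Abcg2, each member past the threshold in any comparison, and in each subfamily the member with the highest mean and the one with the largest absolute difference between the outer gates. Other members named were chosen after their values were seen. The members and the gene lists were chosen with earlier results of these data known. Precision is limited by how few arrays there are. The alternatives were other scalings, summaries, filters, blocks by title code, and leaving out each array.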

Additional observations from a re-analysis of the deposited data

How the results depend on the processing

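Each comparison was recomputed under 16 alternatives. From CD34-Flt3- to CD34+Flt3- cells, 3 ABC genes passed, and 1 did with genes below the median gene left out, with probe sets averaged, and with only the 4 arrays compared. Leaving out 1 array gave 0 to 7 there, 0 to 0 from CD34+Flt3- to CD34+Flt3hi cells (in limma, 1 to 8 at an unadjusted p under 0.05), and 2 to 8 between the outer gates, where the other alternatives gave 4 to 8. With the title code as a replicate block the counts were 5, 3 (Abca4, Abcb1b and Abcg2) and 8, and over all genes 1579, 670 and 2360 in place of 382, 111 and 1112. CD34-Flt3- replicate 1 has a code of its own, so under the block CD34-Flt3- cells rest on replicate 2 alone. The first and last of these counts share that limit. Abcg2 was -0.997 in the first step under the block, and Abca7 was -1.50 between the outer gates. In the second step, between groups with the same codes, Abcg2 passed at -0.83 (limma, adjusted p = 0.0487) and Abcb1b at 0.98 (limma, adjusted p = 0.016). Deviations of the code A arrays from their group means had correlations of 0.31, 0.07 and 0.06. With 2 arrays per group, the deviations of replicates 1 and 2 mirror each other. The 0.31 and 0.06, which involve CD34-Flt3- cells, therefore hold equally for the replicate 1 arrays, which do not share a code there. These values cannot decide whether the code is a pairing, and the main fit did not use it.

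The sign of Abcb1b in the first step turned to 0.20 with quantile normalization, 0.0865 with centring and 0.0375 with its probe sets averaged, and ran from -0.30 to 0.29 with arrays left out. With arrays left out, Abca3 in the second step ran from -0.23 to 0.12, Abcb1a in the second step from -0.66 to 0.35, and Abce1 between the outer gates from -0.10 to 0.75. Abcf1 between the outer gates was 0.59 with x and s probe sets left out. The causes were not tested.

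Over all genes, quantile normalization gave 253 higher and 246 lower in the first step, against 140 and 242, and 63 and 71 in the second, against 70 and 41. Centring gave 192 and 233 in the first step, and 618 higher and 583 lower between the outer gates, against 476 and 636. Counts over all genes also moved to 199 and 69 with probe sets averaged and to 47 and 300 with only the 4 arrays compared, in the first and second step. With arrays left out they ran over 0 to 983, 18 to 300 and 271 to 1918 in the 3 comparisons, and the 0, without CD34+Flt3- replicate 2, had 1569 genes at an unadjusted p under 0.05 in limma. Readings near background limit Abca5, Abcb1a, Abcd2 and Abcg3, which the filter on dim genes removed.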
